A study of Mus musculus with 16 samples.

Results

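Pericellular proteolysis is the cleavage of matrix and surface proteins close to the cell membrane. The 9 genes described here were Plaur, Plau, Plat, Adamts1, Mmp14, Mmp2, Mmp9, Timp1 and Timp3, and their members on the array were all probes that carried one of these names. The 9 are among 18470 named genes with a usable probe, and their probes came to 26 of 43426: 4 each for Plaur, Plau, Adamts1 and Timp1, 3 for Plat, 2 each for Mmp14, Mmp2 and Mmp9, and 1 for Timp3. All 26 were among the 39788 probes kept, those well above background in the sample channel on at least 3 of the 16 arrays.

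The system works as a cascade. Urokinase (Plau) and tissue plasminogen activator (Plat) turn plasminogen into plasmin, and the urokinase receptor (Plaur) holds urokinase at the cell surface. Plasmin and the membrane-anchored metalloproteinase MMP14 can activate secreted metalloproteinases such as the gelatinases MMP2 and MMP9, ADAMTS1 cleaves proteoglycans, and the TIMP proteins block the active sites of metalloproteinases. In growing vessels these proteins are known for opening a path through the basement membrane at the sprout front.

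Retinas of C57Bl6 mouse pups were profiled 24 h after treatment. In the VEGF-A group (5 samples), 1 µg of the vascular endothelial growth factor was injected into the vitreous of pups aged 8 days, and in the Dll4-Fc group (4 samples), 4 µg of the Notch ligand Dll4 fused to an Fc part. The VEGF Trap group (3 samples) received a soluble decoy receptor for VEGF, for which the labels give neither a dose nor an age, and the hFc group (4 samples) received 4 µg of hFc alone at 8 days, the control protein without a ligand. On each array a sample, in Cy3, was hybridised with the same Cy5 pool of equal RNA amounts from the experiment, and each value below is the log2 ratio of the sample to that pool, so that 0 means the level of the pool. Whether each sample is a different animal is not stated in the labels, and p-values therefore cover only the spread among these arrays, which may be technical. The titles of hFc samples 1 and 2 share a number code, as do those of VEGF-A sample 4 and VEGF Trap sample 3, and the labels do not explain it.

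Between 84.9% and 91.0% of an array's spots were well above background in Cy3, and no spot was saturated. Slide 1 held the hFc arrays and slide 2 the Dll4-Fc arrays, with no other group on either, so in every comparison that involves hFc or Dll4-Fc the treatment and the slide cannot be told apart. Slides 3 and 4 each held both VEGF-A and VEGF Trap arrays. The hFc arrays carried 2350 to 2599 spots that the scanner software marked as outliers, against 12 to 213 on the other arrays. These spots were left out. They concentrated between array rows 67 and 231, where 10 of the 26 member probes lie. Rod markers were well above background in every group, as a retina would have them, and the 3 lens markers varied between arrays of each group (their mean log2 ratio ran between -3.19 and 1.22 within hFc alone). Retina was measured in bulk, and a lower value can mean fewer cells of a type or less RNA per cell, which cannot be told apart.

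The probe sequences of Plaur and Timp1 are shown first because their probes overlap, which bears on how far they are independent readings. Plaur probes A_51_P112405 and A_51_P112407 share 40 bases, given in capitals, and both span an intron by the coordinates in the files, for which no build is named. They read 5′ to 3′ as follows.
A_51_P112405: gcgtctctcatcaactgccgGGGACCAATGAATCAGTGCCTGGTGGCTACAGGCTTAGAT
A_51_P112407: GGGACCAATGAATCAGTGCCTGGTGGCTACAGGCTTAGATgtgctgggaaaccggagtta
The other Plaur probes, A_52_P681310 and A_66_P101695, are shifted against each other by a single base and share 59. Their first 30 bases, with the shared bases in capitals, are these.
A_52_P681310: cCCTCGTGTTGTCTTCTTTGGACCTCAGTT
A_66_P101695: CCTCGTGTTGTCTTCTTTGGACCTCAGTTT
The 4 Plaur probes therefore read 2 stretches of the transcript. Of the Timp1 probes, A_51_P512387 shares 20 bases with A_51_P512384 and 40 with A_51_P512379, in capitals below, and so lies wholly within sequence that its neighbours also cover.
A_51_P512384: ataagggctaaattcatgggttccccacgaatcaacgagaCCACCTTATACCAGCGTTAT
A_51_P512387: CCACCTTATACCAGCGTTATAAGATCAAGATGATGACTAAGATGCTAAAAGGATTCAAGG
A_51_P512379: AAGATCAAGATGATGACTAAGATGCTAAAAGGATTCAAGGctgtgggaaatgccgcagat
No probes of the other genes shared 20 or more bases with each other. The probes lie on chromosome 7 for Plaur and X for Timp1, 14 for Plau and Mmp14, 8 for Plat and Mmp2, 16 for Adamts1, 2 for Mmp9 and 10 for Timp3.

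In VEGF-A retinas the urokinase receptor, both plasminogen activators, Adamts1 and Timp1 rose well beyond the spread between arrays, and Mmp14 rose slightly. The gelatinases Mmp2 and Mmp9 did not pass the test, nor did Timp3. By probe, 17 of the 26 rose and 0 fell against hFc (limma on all kept probes, Benjamini-Hochberg adjusted p under 0.05), where 5.68% of all probes tested rose and 3.3% fell. At an unadjusted p under 0.05, 18 member probes were higher and 1 lower, where 8521 of all 38887 probes passed in either direction. By gene, read from its brightest probe, 6 of 9 rose and 0 fell, against 6.71% and 4.22% of all named genes. The median log2 difference over the 9 brightest probes was 1.57, against -0.05 over all named genes.

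**Figure D1:**
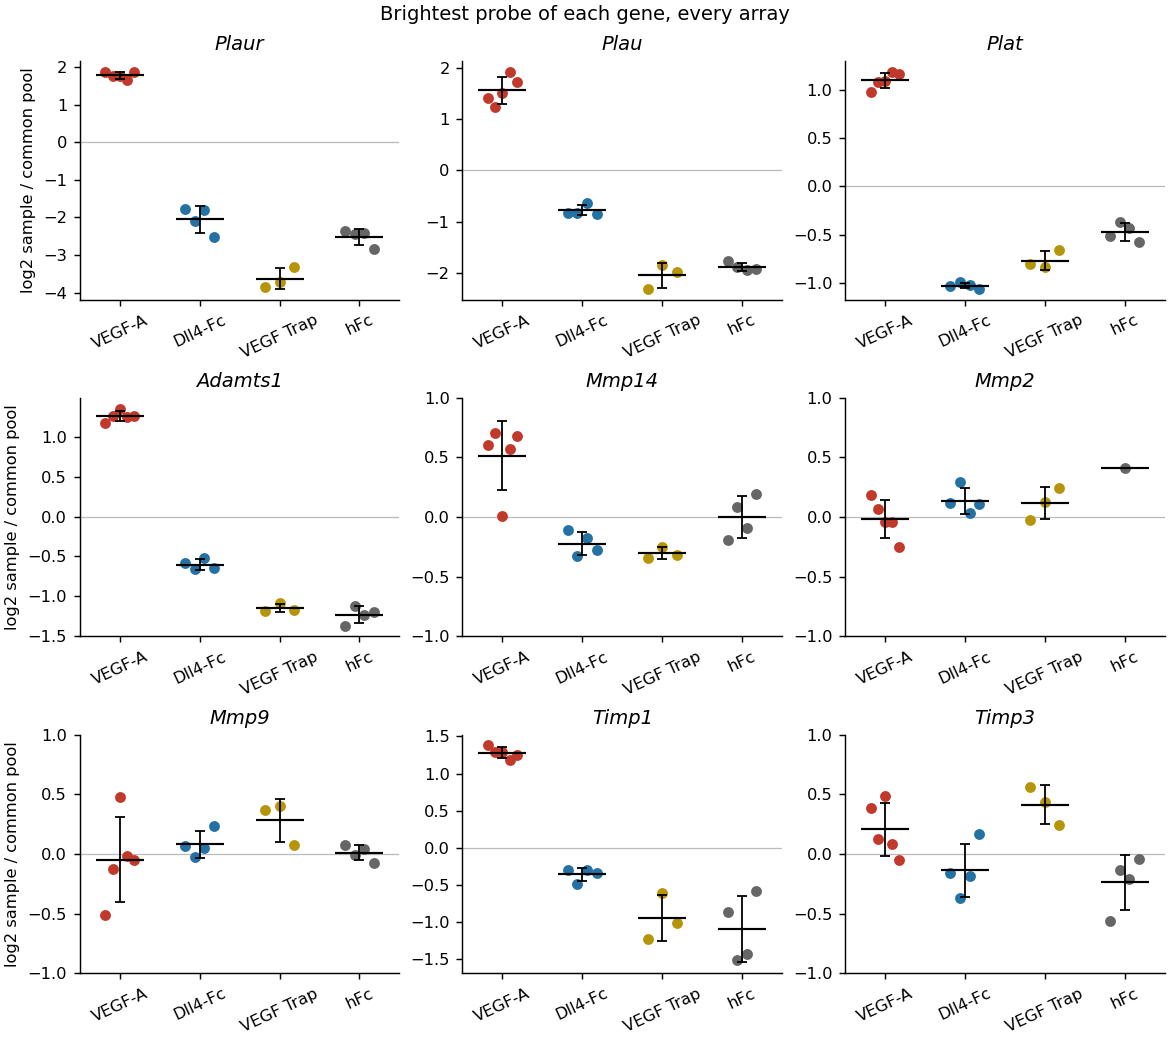
Log2 ratio of sample to common pool (vertical axis) for the brightest probe of each of the 9 genes, 1 point per array, in VEGF-A, Dll4-Fc, VEGF Trap and hFc retinas; lines are group means and bars SDs. The 5 VEGF-A arrays stand above all others for Plaur, Plau, Plat, Adamts1 and Timp1, while the groups overlap for Mmp9; Mmp2 has 1 hFc array left.

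Plaur, the receptor, had the largest difference among the 9 genes. Its brightest probe (A_51_P112405) read 1.87, 1.76, 1.75, 1.65 and 1.86 in the 5 VEGF-A samples, -1.78, -2.11, -1.79 and -2.53 in the Dll4-Fc samples, -3.85, -3.72 and -3.32 in the VEGF Trap samples, and -2.38, -2.44, -2.42 and -2.85 in the hFc samples. The VEGF-A samples formed a tight group far above the rest, the VEGF Trap samples lay lowest, and Dll4-Fc overlapped hFc. The log2 difference between VEGF-A and hFc was 4.3 ± 0.16 (SE, n = 5 and 4, limma adjusted p = 1.04e-10), a 19.7-fold higher ratio. The overlapping probe A_51_P112407 gave 4.19 ± 0.11 (limma adjusted p = 8.11e-12), and the pair on the other stretch gave 3.27 and 3.29.

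Plau, the protease that Plaur binds, came next. Its brightest probe (A_66_P137686) read 1.42, 1.24, 1.5, 1.92 and 1.72 in VEGF-A samples, -0.82, -0.83, -0.64 and -0.85 in Dll4-Fc samples, -2.31, -1.85 and -1.98 in VEGF Trap samples, and -1.78, -1.88, -1.95 and -1.93 in hFc samples. VEGF-A lay highest and Dll4-Fc stood between it and the other groups, which overlapped each other. The difference between VEGF-A and hFc was 3.44 ± 0.13 on the log2 scale (10.9-fold, limma adjusted p = 1.19e-10). The other Plau probes gave smaller values: 2.83 ± 0.25, 0.58 ± 0.16 and 0.28 ± 0.37, of which the first and second passed the test (limma adjusted p = 1.45e-06, 0.0357 and 0.717). The second of these calls, on A_66_P106308, was lost without hFc sample 1, 3 or 4 or VEGF-A sample 4 (0.52 to 0.58, adjusted p between 0.0717 and 0.108). It was also lost under normexp and loess (0.20, adjusted p = 0.149) and with VEGF-A arrays of slide 3 only (0.33, adjusted p = 0.163). With hFc samples 1 and 2 averaged it was lost as well (0.61, adjusted p = 0.0592), and it held in 14 of 21 settings.

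The dimmer a Plau probe, the smaller was its difference. The mean Cy3 signals of its 4 probes over the 16 arrays were 380, 66.2, 24.0 and 3.99, in the order of the differences just given. The dimmest was well above background on 4 of 16 arrays. A like drop appeared for the dimmest probes of Plat (signal 5.46, on 4 of 16 arrays) and Timp1 (signal 5.22, on 6 of 16), which gave 0.20 ± 0.22 and 0.64 ± 0.32 where the other probes of these genes gave at least 1.49 and 2.13. For a spot with both channels below the detection limit the scanner software writes a ratio of 0, and 16 of the 48 values of these 3 probes were of that kind. The dim Timp1 probe is A_51_P512387, whose whole sequence is covered by its neighbours above. None of the 3 was well above background on any Dll4-Fc array, and no fold change is given for them there. Each of the 3 reached the number of arrays needed to be kept only through VEGF-A arrays. A higher value on them in VEGF-A is therefore not separate support for a rise. A probe's signal also depends on its own hybridisation and is not set against another probe's as an RNA level.

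**Figure D2:**
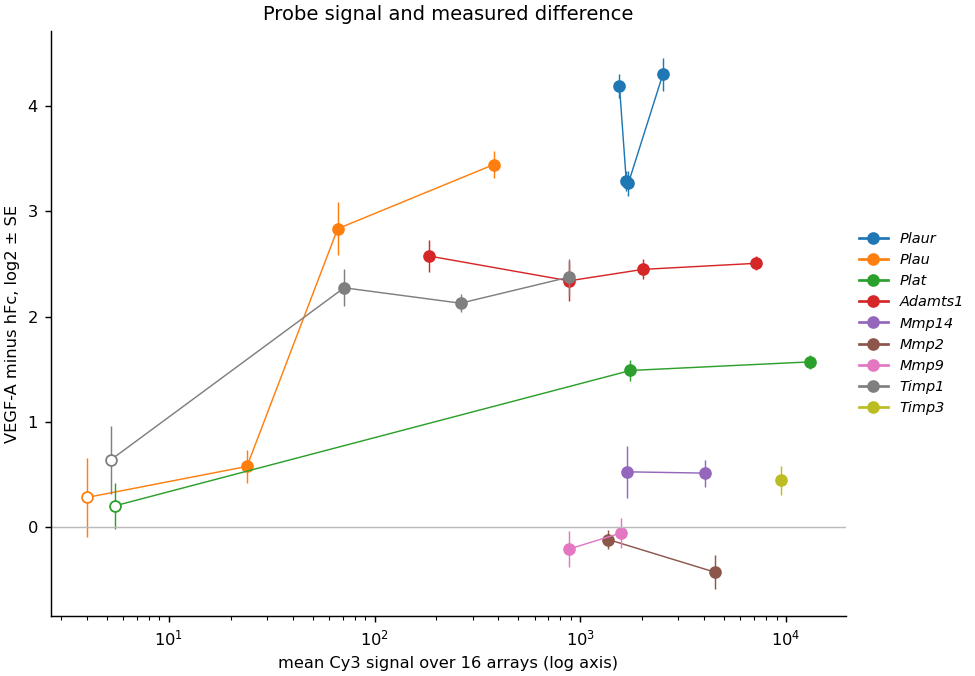
Log2 difference between VEGF-A and hFc with its SE (vertical axis) against the probe's mean Cy3 signal over 16 arrays (horizontal axis, log scale), with probes of a gene joined; open circles are the 3 probes not well above background on all arrays. The 4 Adamts1 probes lie between 2.34 and 2.58 over a wide range of signal, whereas the Plau probes run between 0.28 and 3.44.

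Plat, the other plasminogen activator, is made by neurons as well as endothelium. Its brightest probe (A_51_P301566) read 0.98, 1.08, 1.09, 1.18 and 1.16 in VEGF-A samples, -1.03, -0.99, -1.02 and -1.06 in Dll4-Fc samples, -0.81, -0.84 and -0.66 in VEGF Trap samples, and -0.51, -0.37, -0.43 and -0.58 in hFc samples. All 4 groups were separate, in the order VEGF-A, hFc, VEGF Trap and Dll4-Fc by decreasing level. VEGF-A exceeded hFc by 1.57 ± 0.07 on the log2 scale (2.97-fold, limma adjusted p = 5.85e-10), and the second probe gave 1.49 ± 0.10 with 2 hFc arrays left after outlier spots.

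Adamts1, a secreted protease that cuts the proteoglycans aggrecan and versican, gave like values on all of its 4 probes. Its brightest probe (A_52_P489295) read 1.19, 1.27, 1.36, 1.26 and 1.27 in VEGF-A samples, -0.58, -0.66, -0.52 and -0.65 in Dll4-Fc samples, -1.19, -1.09 and -1.17 in VEGF Trap samples, and -1.37, -1.13, -1.25 and -1.20 in hFc samples. VEGF-A was highest, Dll4-Fc stood apart in between, and VEGF Trap overlapped hFc. The 4 probes put the difference between VEGF-A and hFc at 2.34 to 2.58, the brightest at 2.51 ± 0.07 (5.68-fold, limma adjusted p = 7.37e-12).

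Among the inhibitors, Timp1 rose with the proteases. Its brightest probe (A_52_P87713) read 1.38, 1.3, 1.3, 1.19 and 1.25 in VEGF-A samples, -0.30, -0.49, -0.30 and -0.34 in Dll4-Fc samples, -1.22, -0.60 and -1.01 in VEGF Trap samples, and -0.86, -1.51, -1.43 and -0.58 in hFc samples. VEGF-A and Dll4-Fc each stood apart, and the hFc samples spread widely (SD 0.45), overlapping VEGF Trap. The difference between VEGF-A and hFc was 2.38 ± 0.17 on the log2 scale (5.19-fold, limma adjusted p = 1.12e-07), and A_51_P512384 and A_51_P512379 gave 2.13 and 2.27. Timp3, which binds to the matrix and is abundant next to the pigment epithelium, read 0.39, 0.12, 0.48, 0.08 and -0.05 in VEGF-A samples, -0.16, -0.37, -0.19 and 0.17 in Dll4-Fc samples, 0.56, 0.44 and 0.24 in VEGF Trap samples, and -0.57, -0.13, -0.21 and -0.05 in hFc samples. It was 0.44 ± 0.14 higher in VEGF-A than in hFc, with groups that overlapped and without passing the test (limma adjusted p = 0.0643). It passed under normexp and loess, with the series matrix values and without VEGF-A sample 5 (0.44 to 0.51, adjusted p between 0.0402 and 0.0473).

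The 3 Mmp genes differed less. Mmp14, the membrane-bound activator, read 0.60, 0.71, 0.01, 0.57 and 0.68 in VEGF-A samples, -0.11, -0.33, -0.17 and -0.27 in Dll4-Fc samples, -0.34, -0.25 and -0.31 in VEGF Trap samples, and -0.19, 0.09, -0.09 and 0.19 in hFc samples. In VEGF-A sample 3 it sat within the hFc range. Its difference from hFc, 0.51 ± 0.13, passed the test (limma adjusted p = 0.0199) but not without hFc sample 1 (0.45, adjusted p = 0.0693), hFc sample 3 (0.48, adjusted p = 0.0639) or VEGF-A sample 2 (0.46, adjusted p = 0.0528). For Mmp14 the call was also lost with VEGF-A arrays of slide 4 only (0.42), and it held with those of slide 3 only (0.65). Its second probe gave 0.53 ± 0.24 with 1 hFc array left (limma adjusted p = 0.238), and 0.69 with the outlier spots kept, where it passed (adjusted p = 0.0043), or with the series matrix values (adjusted p = 0.00268).

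Mmp2, one of the gelatinases, read 0.18, 0.07, -0.04, -0.04 and -0.25 on its brightest probe in VEGF-A samples, 0.11, 0.29, 0.04 and 0.11 in Dll4-Fc samples, -0.02, 0.13 and 0.25 in VEGF Trap samples, and 0.41 in the 1 hFc sample left. Its second probe, with all hFc arrays, ran between -0.32 and 0.13 over the 16 arrays, and VEGF-A differed from hFc by -0.12 ± 0.09 (limma adjusted p = 0.484). Mmp9, the other gelatinase, read -0.51, -0.13, 0.48, -0.02 and -0.05 in VEGF-A samples, 0.06, -0.03, 0.05 and 0.23 in Dll4-Fc samples, 0.37, 0.40 and 0.07 in VEGF Trap samples, and 0.07, -0.01, 0.04 and -0.07 in hFc samples. The VEGF-A samples alone spanned more than all other groups together. The Mmp9 difference between VEGF-A and hFc was -0.06 (95% interval -0.37 to 0.26), and that of the second Mmp9 probe was -0.21 (-0.57 to 0.15). With VEGF-A arrays of slide 3 only the second probe gave -0.51 and passed (limma adjusted p = 0.00611).

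The markers of vessel cells moved in VEGF-A retinas as well, where 6.71% of all named genes rose and 4.22% fell. Of 7 endothelial markers, 4 rose and 1 fell against hFc (one that rose, Emcn, by 2.46 ± 0.21 with 1 hFc array left), and their mean log2 ratio was 0.43 to 0.46 on the VEGF-A arrays and -0.17 to -0.13 on the hFc arrays. Emcn enters the endothelial mean on 1 hFc array only, so the VEGF-A and hFc means do not cover the same markers. Of 5 markers of pericytes and smooth muscle, 3 rose, with a mean log2 ratio of 0.65 to 0.90 on VEGF-A arrays and -0.97 to -0.58 on hFc arrays. The endothelial marker Pecam1 rose by 1.31 ± 0.10, while Cldn5 fell by 0.34 ± 0.07. Of 4 Müller glia markers 2 rose and 1 fell, and both erythroid markers measured rose. Of 3 astrocyte markers Gfap rose, by 2.36 ± 0.15, and their mean log2 ratio was 0.33 to 0.51 on VEGF-A arrays and -0.41 to -0.20 on hFc arrays. The part of these cells in the changes of the 9 genes was not tested.

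**Figure D3:**
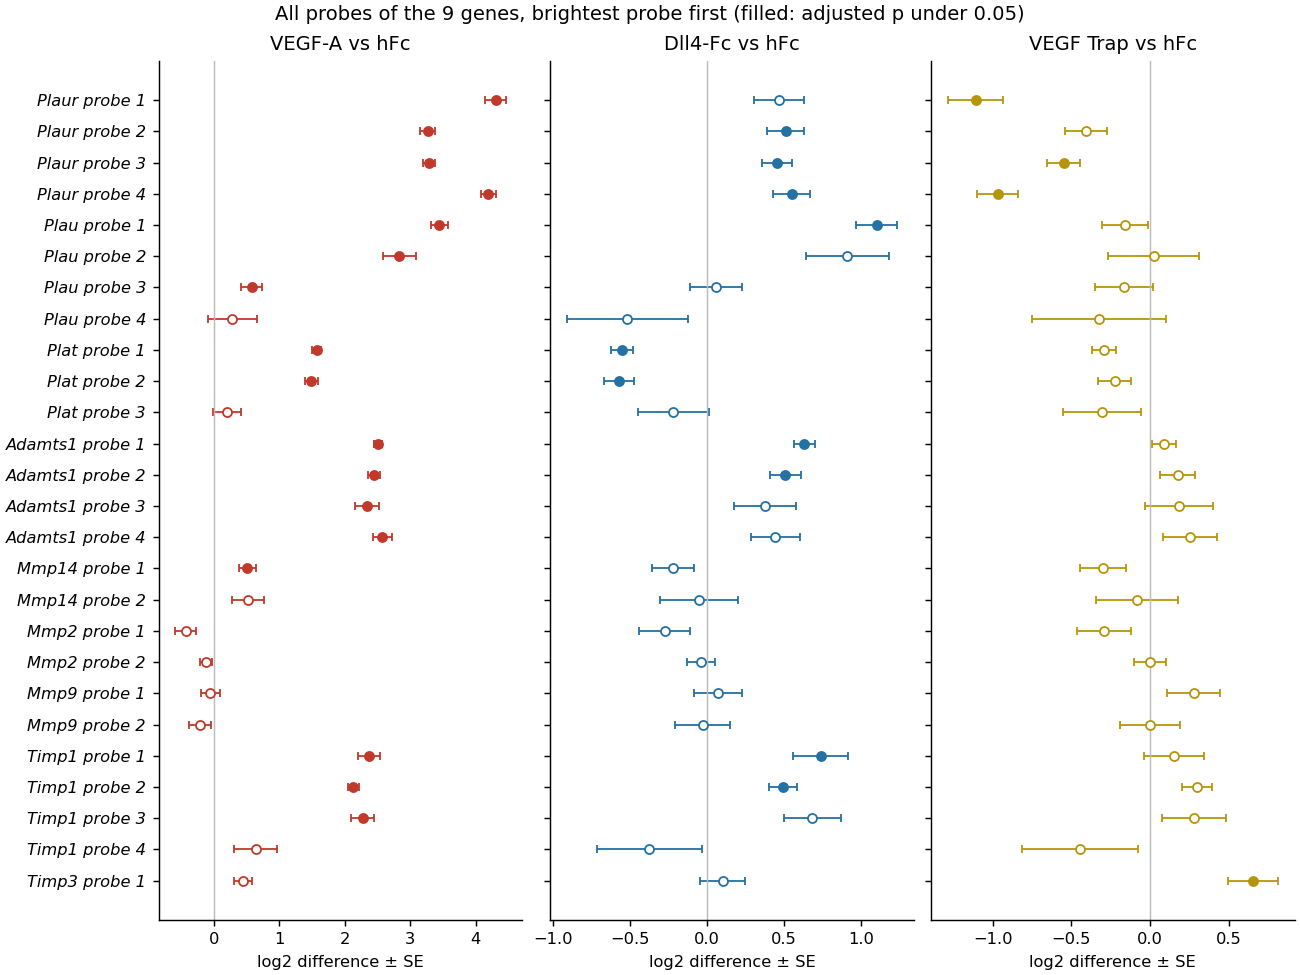
Log2 difference from hFc with its SE (horizontal axes, scaled separately) for all 26 probes, brightest first within each gene, after VEGF-A, Dll4-Fc and VEGF Trap; filled points have an adjusted p under 0.05. After VEGF-A 17 probes rose; after Dll4-Fc 8 rose and the 2 bright Plat probes fell; after VEGF Trap 3 Plaur probes fell and Timp3 rose.

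Dll4-Fc changed the same genes less and not all in 1 direction. On their brightest probes Plau, Adamts1 and Timp1 rose against hFc, Plat fell, and Plaur was higher by a small amount with overlapping groups. By probe, 8 of 26 rose and 2 fell, where 2.65% of all probes rose and 1.37% fell. By gene, 3 of 9 rose and 1 fell, against 3.49% and 1.68% of all named genes.

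Plau, at the values given above for its brightest probe, was 1.1 ± 0.13 higher on the log2 scale in Dll4-Fc than in hFc (2.14-fold, limma adjusted p = 0.000105). Under normexp background correction with loess in place of the scanner software's ratio, it was 0.55 higher and did not pass (adjusted p = 0.0847). No other Plau probe passed: A_52_P302433 was 0.91 higher and A_66_P106308 0.06 higher. Over the settings A_52_P302433 ran between 0.13 and 1.14, and it passed with the Cy3 channel alone (limma adjusted p = 0.0414). Adamts1 rose by 0.63 ± 0.07 (1.55-fold, limma adjusted p = 4.63e-05) and by 0.51 on its second probe, and its other 2 probes, at 0.37 and 0.44, did not pass. Timp1 rose by 0.74 ± 0.18 on its brightest probe (limma adjusted p = 0.0277) and by 0.49 ± 0.09 on A_51_P512384 (limma adjusted p = 0.00361). The call on the brightest Timp1 probe was lost without hFc sample 2 or 3 or without Dll4-Fc sample 1, 3 or 4 (adjusted p between 0.0645 and 0.10). Under normexp and loess the calls on A_51_P512384 (0.39, adjusted p = 0.0619) and the second Adamts1 probe (0.36, adjusted p = 0.0709) were lost. The brightest Adamts1 probe kept its call in all 19 settings.

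Plat fell in Dll4-Fc retinas by 0.55 ± 0.07 on the log2 scale (1.47-fold lower, limma adjusted p = 0.000171), and its second probe fell by 0.57 ± 0.10 (limma adjusted p = 0.0039), with no overlap between the groups. The second probe rests on 2 hFc arrays, and its call was lost under normexp and loess (-0.34, adjusted p = 0.064) and without hFc sample 3 (-0.53, adjusted p = 0.0566). Plaur was 0.47 ± 0.16 higher on its brightest probe, which did not pass (limma adjusted p = 0.187), and 0.45 to 0.55 higher on the other 3, which did. Each of those 3 calls was lost without hFc sample 3 and without Dll4-Fc sample 1 or 3, and 2 of them also without hFc sample 4 or Dll4-Fc sample 2 (adjusted p between 0.0501 and 0.0948). Under normexp and loess all 3 were lost (0.23 to 0.44, adjusted p between 0.0581 and 0.264), while the brightest probe passed (0.48, adjusted p = 0.0375). With the Cy3 channel alone A_66_P101695 and A_51_P112407 lost theirs (0.47 and 0.60, adjusted p = 0.0724 and 0.0508). Dll4-Fc sample 4 lay below the other Dll4-Fc samples on all 4 Plaur probes, and without it the brightest probe gave 0.63 and passed (adjusted p = 0.024). Mmp14, Mmp2, Mmp9 and Timp3 did not pass in this comparison, with differences of -0.22, -0.27, 0.07 and 0.10 on their brightest probes.

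Markers of other cells differed in Dll4-Fc retinas, where 3.49% of all named genes rose and 1.68% fell. All 7 microglia and macrophage markers measured rose, their mean log2 ratio being 0.36 to 0.88 on Dll4-Fc arrays and -0.55 to -0.39 on hFc arrays. Of the 4 Müller glia markers 3 fell, with a mean log2 ratio of -1.17 to -0.24 on Dll4-Fc arrays and -0.11 to -0.05 on hFc arrays. Ly6c1, the 1 monocyte marker measured, rose by 2.07 ± 0.27, and of 3 astrocyte markers Gfap rose, by 1.13 ± 0.16. Of the 7 endothelial markers 1 rose, Tie1 by 0.32 ± 0.07. The part of these cells in the changes of Plau, Adamts1, Timp1 and Plat was not tested.

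In VEGF Trap retinas Plaur fell and most of the other genes did not pass the test. By probe, 1 of 26 rose (Timp3) and 3 fell (all of Plaur), where 0.903% of all probes rose and 1.79% fell. By gene, 1 of 9 rose and 1 fell, against 0.992% and 2.22% of all named genes.

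The brightest Plaur probe fell by 1.11 ± 0.18 on the log2 scale in VEGF Trap retinas (2.16-fold lower, limma adjusted p = 0.0054), and all 3 VEGF Trap samples lay below all 4 hFc samples. The overlapping probe A_51_P112407 fell by 0.97 ± 0.13 (limma adjusted p = 0.00139). On the other stretch A_66_P101695 fell by 0.55 ± 0.11 (limma adjusted p = 0.0154, and 0.0999 without VEGF Trap sample 1), while A_52_P681310, a single base away, was lower by 0.41 ± 0.13 without passing (limma adjusted p = 0.11). With the 2 VEGF Trap arrays of slide 3 the brightest probe was lower by 1.26 (adjusted p = 0.0198), and with the 1 array of slide 4 by 0.80 (adjusted p = 0.285).

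Timp3 was 0.65 ± 0.16 higher in VEGF Trap than in hFc (1.57-fold, limma adjusted p = 0.0443). That call did not hold when any 1 array of either group was left out (0.54 to 0.74, adjusted p between 0.0525 and 0.208). Plat was lower by 0.29 ± 0.08 with separate groups and an adjusted p of 0.0563 by limma, and passed in 7 alternatives (adjusted p between 0.0118 and 0.0483). Plau, Adamts1 and Timp1 did not pass, with differences of -0.16 (95% interval -0.47 to 0.15), 0.09 (-0.08 to 0.25) and 0.15 (-0.26 to 0.56) on their brightest probes. Mmp14, Mmp2 and Mmp9 differed by -0.30, -0.29 and 0.27 without passing.

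In the same retinas 6 of the 7 endothelial markers fell, where 2.22% of all named genes fell. Among them were Pecam1, by 0.65 ± 0.11, and Emcn, by 1.05 ± 0.22, for which 1 hFc array was left. The mean log2 ratio of the endothelial markers was -0.97 to -0.79 on VEGF Trap arrays and -0.17 to -0.13 on hFc arrays. Emcn, which averaged -2.18 in VEGF Trap, enters the hFc mean on 1 array only. The means of the groups therefore do not cover the same markers. The part of vessel cells in the Plaur change was not tested.

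VEGF-A against VEGF Trap is the comparison that can be made within slides. By probe, 19 of 26 were higher in VEGF-A and 0 lower by limma, where 9.76% of all probes were higher and 7.11% lower. At an unadjusted p under 0.05 the member counts were 20 and 0, where 12002 of all 39788 probes passed in either direction. By gene, 6 of 9 were higher and 0 lower, against 11.9% and 8.76% of all named genes. With slide as a fixed block 17 member probes passed, and the share over all probes is not given for that fit. The calls lost with the block were those of Plau A_66_P106308 (0.65, adjusted p = 0.0627) and of the dim Timp1 A_51_P512387 (1.11, adjusted p = 0.0916), which was lost in 12 of 18 alternatives. That Timp1 probe counts among the 19 although it was kept only through VEGF-A arrays, and it adds no support. The Plaur probes differed by 5.41 ± 0.17, 5.16 ± 0.12, 3.84 ± 0.10 and 3.67 ± 0.13 on the log2 scale (all limma adjusted p at most 4.00e-11), the brightest being 42.5-fold higher. Plau differed by 3.60 ± 0.14, Adamts1 by 2.42 ± 0.07, Timp1 by 2.23 ± 0.18 and Plat by 1.86 ± 0.07 on their brightest probes.

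Within slide 3, with 2 arrays of each group, the differences were 5.6 for Plaur, 3.41 for Plau, 2.37 for Adamts1, 2.25 for Timp1 and 1.85 for Plat. Within slide 4, with 3 VEGF-A arrays and 1 VEGF Trap array, they were 5.08, 3.69, 2.47, 2.25 and 1.80 in the same order. These 5 genes had the same direction on each slide. The value on slide 4 rests on 1 VEGF Trap array, which in its test is assumed to vary like the other groups. Mmp14 was 0.81 ± 0.14 higher in VEGF-A than in VEGF Trap (limma adjusted p = 0.000867), 0.95 within slide 3 and 0.74 within slide 4, where it did not pass (adjusted p = 0.0932). Mmp9 did not pass over all arrays (-0.33 ± 0.16, limma adjusted p = 0.18) but was lower in VEGF-A within slide 3 (-0.71, adjusted p = 0.00615) and not within slide 4 (0.06, adjusted p = 0.892). Without VEGF-A sample 3, an array of slide 4, this brightest Mmp9 probe passed (-0.46, adjusted p = 0.0185). The second Mmp9 probe was also lower in VEGF-A within slide 3 (-0.75, limma adjusted p = 0.0014). On slide 4 its direction was the other way, with a VEGF-A mean of 0.12 and -0.37 on the 1 VEGF Trap array.

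**Figure D4:**
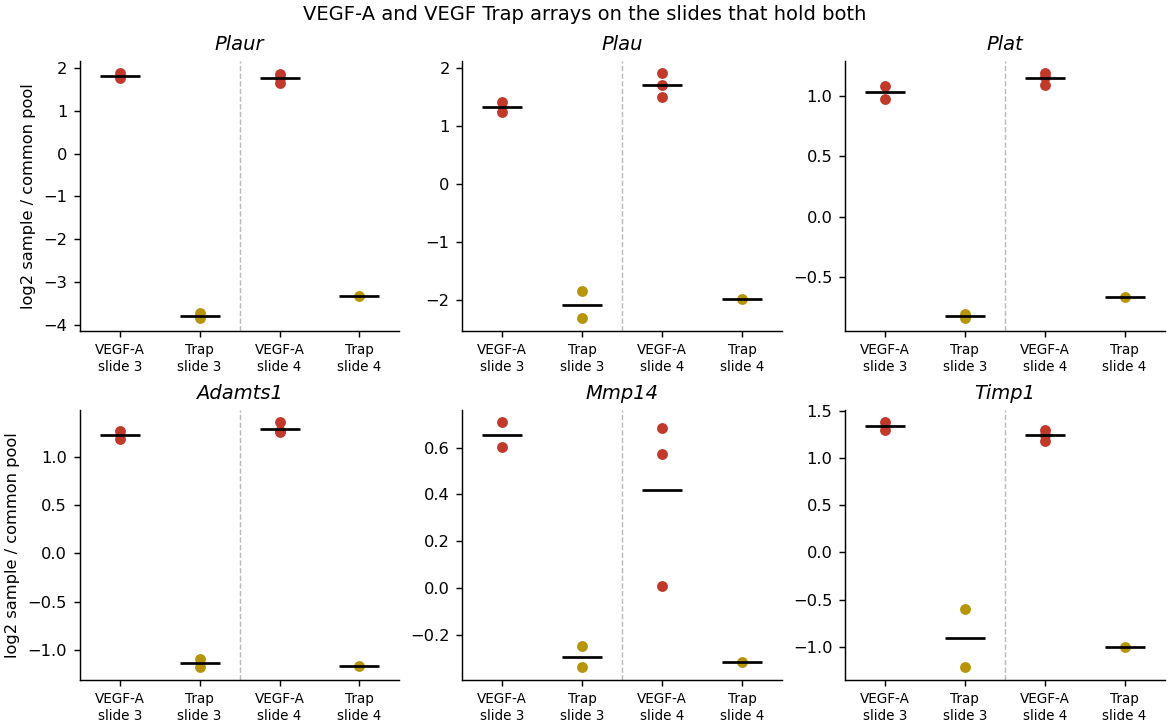
Log2 ratio of sample to common pool (vertical axes) for the brightest probes of 6 genes on the slides that hold both VEGF-A (red) and VEGF Trap (yellow) arrays, 1 point per array with group means as lines. VEGF-A lies above VEGF Trap on both slides for every gene shown; for Mmp14, 1 VEGF-A array of slide 4 reads 0.01 and lies nearer to VEGF Trap than the other VEGF-A arrays.

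Dll4-Fc was also set against VEGF-A, in arrays of different slides. By probe, 0 of 26 were higher in Dll4-Fc and 18 lower by limma, where 5.42% of all probes were higher and 6.71% lower. At an unadjusted p under 0.05 the member counts were 0 and 20, where 9070 of all 39788 probes passed in either direction. Plaur was lower by 3.83 ± 0.16 on the log2 scale, Plau by 2.34 ± 0.13, Plat by 2.12 ± 0.07, Adamts1 by 1.88 ± 0.07, Timp1 by 1.64 ± 0.17 and Mmp14 by 0.74 ± 0.13. Mmp2, Mmp9 and Timp3 did not pass (0.15, 0.13 and -0.34). On their brightest probes Plau, Adamts1 and Timp1 rose against hFc after both proteins and were lower in Dll4-Fc than in VEGF-A. That difference cannot be told apart from the one between slides.

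The other genes of the pathway were read from their brightest probes in lists. Their counts stand beside the shares of all named genes called against hFc. After VEGF-A 6.71% rose and 4.22% fell, after Dll4-Fc 3.49% and 1.68%, and after VEGF Trap 0.992% and 2.22%. The lists are short, so a count of 1 or 2 in a list says little against these shares. Of 12 genes of the plasminogen system, 2 rose and 0 fell in VEGF-A retinas (median log2 difference 0.07). They were Anxa2 and S100a10, which together form a surface receptor for plasminogen, at 2.04 ± 0.08 and 0.97 ± 0.24, the second with 2 hFc arrays left. After Dll4-Fc 1 of the 12 rose, Anxa2 by 0.38 ± 0.08 (limma adjusted p = 0.0169), and 0 fell. In VEGF Trap retinas neither Anxa2 nor S100a10 passed, and the 2 that rose were Klkb1, plasma kallikrein, by 0.58 ± 0.14 (limma adjusted p = 0.0402), and Serpina5, which was not well above background on any hFc array and was at least 1.13-fold higher (limma adjusted p = 0.0483). Here, as in the lists below, called genes that differed by less than 1 on the log2 scale were named after their values were seen.

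Of 16 other matrix metalloproteinases, 3 rose and 3 fell in VEGF-A retinas (median -0.16). The stromelysin Mmp3 was not well above background on any hFc array and was at least 4.70-fold higher in VEGF-A (limma adjusted p = 3.3e-09), with a mean log2 ratio to the pool of 2.03 ± 0.38 in VEGF-A (SD, n = 5) and -3.11 ± 0.09 in hFc (SD, n = 4). Such bounds compare the Cy3 channel after normexp, loess and Aquantile normalization with, on each dim array, the higher of the lowest signal called well above background and the probe's own signal, and dyes were not swapped. For Mmp3 the probe's own signal was the higher. The collagenase Mmp13 rose by 1.97 ± 0.24 and the stromelysin Mmp10 by 1.33 ± 0.10, while Mmp11, Mmp25 and Mmp24 fell by 0.51, 0.43 and 0.34. By limma 0 of the 16 passed after Dll4-Fc (median -0.07), where 3.49% of all named genes rose and 1.68% fell. At an unadjusted p under 0.05 that comparison had 4805 of all 38887 probes. After VEGF Trap 1 fell, the membrane-anchored Mmp25, by 1.27 ± 0.13 (limma adjusted p = 0.000186).

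**Figure D5:**
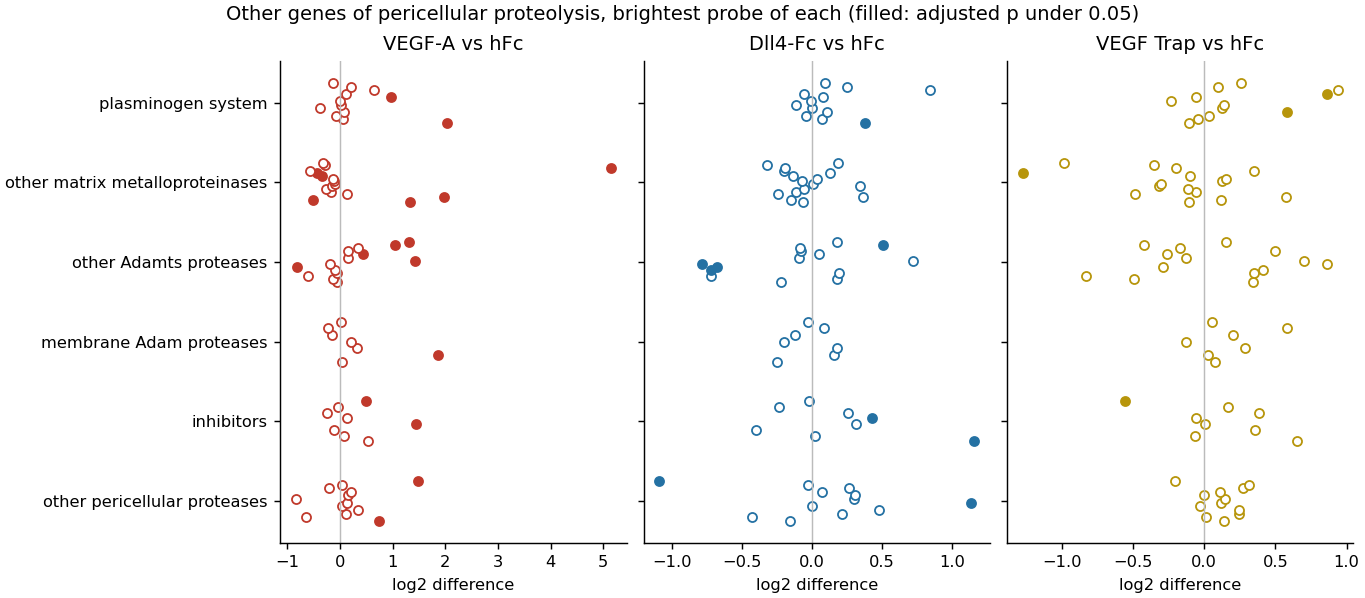
Log2 difference from hFc (horizontal axes, scaled separately) of the other genes of pericellular proteolysis, brightest probe of each, by list and treatment; filled points have an adjusted p under 0.05. After VEGF-A the point farthest to the right is Mmp3, whose plotted difference is the fitted one although no hFc array had it well above background.

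Of 14 other Adamts proteases tested, 4 rose and 1 fell in VEGF-A retinas (median 0.05). Adamts2, a procollagen peptidase, rose by 1.42 ± 0.22, Adamts9 by 1.31 ± 0.14, Adamts8 by 1.05 ± 0.11 and Adamts4 by 0.45, and Adamts18 fell by 0.82. After Dll4-Fc 1 rose, Adamts8 by 0.51, and 3 fell, Adamts19, Adamts16 and Adamts18 by 0.79, 0.72 and 0.68 (median -0.08). After VEGF Trap 0 passed in either direction by limma (median 0.01), where 0.992% of all named genes rose and 2.22% fell. At an unadjusted p under 0.05 that comparison had 7578 of all 38887 probes. Of 7 membrane-bound Adam proteases 1 rose in VEGF-A retinas, Adam12 by 1.87 ± 0.12, and 0 passed in the other comparisons with hFc by limma.

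Of 8 genes listed as inhibitors besides Timp1 and Timp3, 2 rose in VEGF-A retinas, Timp4 by 0.49 and Serpinh1 by 1.44 ± 0.11. Serpinh1 is a collagen chaperone of the serpin family and not a protease inhibitor. After Dll4-Fc 2 rose, A2m, a broad protease trap, by 1.16 ± 0.28 and Spint1 by 0.43, and after VEGF Trap Timp4 fell by 0.56. Of 12 other pericellular proteases, Prss23 rose by 1.49 ± 0.13 and the procollagen protease Bmp1 by 0.73 in VEGF-A retinas. After Dll4-Fc the cathepsin Ctss, a protease of microglia, rose by 1.13 ± 0.14, beside the rise of all 7 microglia markers, and Prss23 fell by 1.09 ± 0.13. The median of the 12 was 0.13 after VEGF-A and 0.14 after Dll4-Fc, against -0.05 and -0.02 over all named genes.

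Genes were ranked by the likeness of their pattern to each member whose group means spanned more than 1, as the root mean square difference over the 16 arrays after centring, among 15748 genes read on all arrays. Plaur was most like Btnl9 (0.47), Tfpi2 (0.50), a protease inhibitor, and Procr (0.53), the endothelial protein C receptor. Plau was most like Tubb6 (0.24), Itgb3 (0.29), the beta chain of a vitronectin receptor, and Exoc3l2 (0.29). Plat was most like Rhoc (0.16), Foxd2os (0.17) and Myl9 (0.19), and Adamts1 most like Akr1b8 (0.17), Tuba1c (0.17) and Slc43a1 (0.18). Timp1 was most like Anxa2 (0.25), Adamts1 (0.26) and the endothelial gene Plvap (0.27). Tubb6, the closest to Plau, averaged 1.58 ± 0.11 in VEGF-A, -0.85 ± 0.10 in Dll4-Fc, -2.28 ± 0.26 in VEGF Trap and -1.60 ± 0.10 in hFc (log2 ratio, SD, n = 5, 4, 3 and 4). Rhoc, the closest to Plat, averaged 0.97 ± 0.13, -0.92 ± 0.10, -0.72 ± 0.18 and -0.35 ± 0.08 in the same groups, and so had the same order of group means as Plat.

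The RefSeq table (GRCm38.p6) held the stretch before the start of 5 of the 9 genes: Plaur, Adamts1, Timp1, Mmp14 and Timp3. In the 250 bases before each start, 5 motifs were sought on both strands: AP-1 (TGANTCA), ETS (GGAAG), EGR (GCGNGGGCG), RBPJ (TGGGAA) and the hypoxia response core (ACGTG). They occur in 6.75%, 64.1%, 4.70%, 21.6% and 16.6% of the 32851 stretches of that length in the table. An RBPJ match that is followed by G also holds an ETS match. Those of Plaur, Adamts1 and Timp1, which all rose in VEGF-A retinas, are shown, with the AP-1 match in capitals.
Plaur, chr7:24462233-24462482, plus strand: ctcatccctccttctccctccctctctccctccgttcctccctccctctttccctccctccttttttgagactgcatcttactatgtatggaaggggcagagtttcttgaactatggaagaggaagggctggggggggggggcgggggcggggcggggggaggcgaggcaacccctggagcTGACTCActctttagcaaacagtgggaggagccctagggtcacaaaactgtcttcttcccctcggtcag
Adamts1, chr16:85803114-85803363, minus strand: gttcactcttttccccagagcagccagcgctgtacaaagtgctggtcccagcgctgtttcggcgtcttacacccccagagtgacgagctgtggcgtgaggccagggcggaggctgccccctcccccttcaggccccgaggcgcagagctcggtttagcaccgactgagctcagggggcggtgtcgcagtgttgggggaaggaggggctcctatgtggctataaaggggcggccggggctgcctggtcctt
Timp1, chrX:20869916-20870165, plus strand: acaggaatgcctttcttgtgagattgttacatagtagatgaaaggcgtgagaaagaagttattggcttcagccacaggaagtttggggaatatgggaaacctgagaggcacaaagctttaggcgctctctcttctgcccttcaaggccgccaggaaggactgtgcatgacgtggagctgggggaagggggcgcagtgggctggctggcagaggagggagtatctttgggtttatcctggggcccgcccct
Plaur held 1 AP-1 match, 69 bases before the start, 4 ETS matches and 1 EGR match. Adamts1 held 1 ETS match. Timp1 held 3 ETS matches, 1 RBPJ match and 1 hypoxia response match. Mmp14 held 2 ETS, 1 EGR and 1 hypoxia response match, and Timp3 2 ETS matches. These are matches of letters and say nothing of binding.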

How the data were processed

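Retinal RNA of 16 samples was measured on 2-colour Agilent arrays. Per the file headers, the authors' scanner files come from Feature Extraction (9.5.1.1 per the submitters' processing notes) and hold a deposited log10 ratio of Cy5 over Cy3, background-subtracted and dye-normalized, and intensity values for each channel. The deposited flag columns, other than numbers of signal, were used to leave out outlier spots. The authors' series matrix holds natural log ratios that followed the scanner ratios (correlation at least 0.999) and served as an alternative.

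Each log10 ratio was turned to log2 of sample over pool by its negative. Spots of a probe were averaged. A probe was kept where the sample channel exceeded background clearly on 3 or more arrays. Group means were fitted with limma 3.58.1 in R 4.3.3 on all kept probes, with Benjamini-Hochberg adjustment over all of them (threshold 0.05). Of 38887 probes compared with hFc, 17951 were the brightest of a named gene; names came from accessions for 25775 probes, from symbols for 7185 and from older symbols for 3283 (RefSeq GRCm38.p6). The precision rests on 3 to 5 arrays a group. The fit was tested on simulated data.

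Members, gene lists and tests were chosen with earlier results of these data known. Members are shown by every probe; the rule for other pathway genes named those called with a log2 difference of at least 1, at most 4 per list, and further called genes were named after their values were seen. The 4 groups were compared in 5 comparisons and under 30 alternative settings, covering background correction, the Cy3 channel alone, filters, slide, centring and left-out arrays. One gene of the pathway lists is not reported here and was left out of its list's counts.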

Additional observations from a re-analysis of the deposited data

Results flagged for a closer look

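Single arrays stood apart from the rest of their group in 9 of 74 groups of 4 or 5 arrays tested by Dixon's ratio at its 95% critical value, which chance alone passes in about 1 group in 20. Dll4-Fc sample 4 was lower than the other Dll4-Fc samples on 3 Plaur probes, at -1.97, -2.0 and -2.35 log2 ratio, against -1.63 to -1.59, -1.58 to -1.57 and -1.80 to -1.70 in the others. The probes were A_52_P681310 and A_66_P101695, which overlap each other, and A_51_P112407 on the other stretch. On the brightest Plaur probe hFc sample 4 was low, at -2.85 against -2.44 to -2.38 in the other hFc samples. On the brightest Plau probe Dll4-Fc sample 3 was high, at -0.64 against -0.85 to -0.82 in the other Dll4-Fc samples. On the brightest Mmp14 probe VEGF-A sample 3 was low, at 0.0082 against 0.57 to 0.71 in the other VEGF-A samples. On the second Mmp2 probe hFc sample 4 read -0.034 against 0.038 to 0.05 in the other hFc samples, a small gap in a narrow group. On the dim Plau probe hFc sample 2 read 0.68 against -0.12 to 0 in the other hFc samples, and on the dim Timp1 probe it read 1.49 against 0 in all others, a value that the scanner software sets when both channels are undetected.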

How the results depend on the processing

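Under 30 alternative settings no call on a member probe changed its direction. For the brightest probes 854 values kept their side of the threshold, 23 lost the call and 14 gained it. Direction was compared only where a call was made. Some uncalled differences changed sign, such as that of Mmp9 between VEGF-A and hFc (-0.33 to 0.13). The count of member probes called stayed within 1.5 times the main value in 91 cases and not in 10. For Dll4-Fc against hFc it was 10, and it was 4 under normexp and loess, 6 of 16 when all probes of the marked rows were left out (a setting chosen after seeing the data), and 5 to 10 when 1 array was left out (5 without hFc sample 3, 6 without Dll4-Fc sample 1 or 3). For VEGF Trap against hFc it was 4, and it was 2 with the Cy3 channel alone, 2 with slide 3 only, 0 with slide 4 only and 2 to 3 when 1 array was left out (2 without VEGF Trap sample 1). For VEGF-A against VEGF Trap it was 19, 12 of 16 without the marked rows, and 17 to 20 when 1 array was left out. The cause was not tested, except that leaving rows or arrays out leaves fewer probes or samples.

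Over all probes, VEGF Trap against hFc gave 1046 calls, 2319 under normexp and loess, 388 with Cy3 alone, 539 with hFc samples 1 and 2 averaged, 245 with slide 4 only, and 259 to 933 with 1 array left out (651, 426, 442 and 607 without hFc samples 1 to 4, 259 and 469 without VEGF Trap samples 1 and 3). VEGF-A against VEGF Trap gave 6714, 4183 with slide 3 only, 3311 with slide 4 only, and 4173 and 4426 without VEGF Trap samples 1 and 3. No paired analysis was possible because the labels give no replicate numbers that pair samples across groups. Slide as a fixed block, which VEGF-A and VEGF Trap share, gave 17 member probes for that comparison, again without the share over all probes, so the count cannot be set against it. The 3 dimmest member probes limit what can be said of their size.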
